A study of Mus musculus with 20 samples.

Results

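The genes described here encode the proteins of the mitochondrial ribosome. They were chosen by symbol: protein-coding mouse genes whose symbol starts with Mrpl or Mrps followed by a number, with a value of at least 1 in 5 or more of the 20 libraries. All 77 such genes in the table passed, of 10890 genes that passed the same filter and 37748 entries in all. Expression was measured by RNA sequencing of bulk CFU-E, the late erythroid progenitors of the bone marrow, sorted as lineage-negative, Kit-high cells with CD105 and without Sca-1, CD41, CD150 or CD16/32, the last of which is carried by granulocyte and macrophage progenitors. The 4 groups held 5 libraries each, and each library carries its own number in the labels, which do not say whether each came from 1 mouse. The first was Mx1-Cre Srsf2 P95H/+ given phenylhydrazine (PHZ), and the second was Mx1-Cre Srsf2 P95H/+ given PBS. The third was Mx1-Cre given PHZ, and the last was Mx1-Cre given PBS. PHZ destroys circulating red cells and so drives the marrow to make new ones. It was given under the skin at 30 mg/kg, first on day 0 and again on day 1, and cells were collected on day 4. All animals carried Mx1-Cre, an interferon-inducible driver that acts in many blood and non-blood cells, so the heterozygous Srsf2 P95H mutation is not limited to erythroid cells. The sources used here do not state the age of the mice or how Cre was induced.

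Mitochondria carry their own ribosome, which translates the few proteins encoded by mitochondrial DNA, all of them subunits of the respiratory chain and the ATP synthase. Its RNAs come from mitochondrial DNA, whereas all of its proteins are encoded in the nucleus, made in the cytosol and imported. Some of these proteins descend from bacterial ribosomal proteins and others are found only in mitochondria. In red cell progenitors the mitochondria also make haem and iron-sulphur clusters, and are cleared as the cells mature.

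Of the 77 genes, 50 encode large-subunit proteins and 26 small-subunit proteins. Despite their symbols, Mrps30 (mL65) and Mrps18a (mL66) encode large-subunit proteins. Mrps36 is counted with neither subunit, because its product, also called KGD4, is a component of the 2-oxoglutarate dehydrogenase complex of the citric acid cycle. Bacterial homologues made up 45 of the 76 subunit genes, 29 of them in the large and 16 in the small subunit. The other 31 were classed as specific to mitochondria. These include Mrps18a and Mrps18b, although both are relatives of bacterial S18. The genes lie on 17 chromosomes, and 19 have a head-to-head neighbour whose start lies within 1000 bases. At 32 of them exons overlap the exons of another annotated gene, at 28 of these on the opposite strand. Since the sources used here do not state whether the counting used strand, their values can hold reads of the overlapping gene.

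Promoter sequences are shown for 5 genes on which the comparisons below turn: Mrps18b, Mrps27 and Mrpl20, which rose after PHZ in Mx1-Cre cells, and Mrps21 and Mrps36, which fell after PHZ in P95H cells. Each runs 5′ to 3′ from 250 bases before to 50 bases after the RefSeq start, on GRCm38.p6. The windows are chr17:35916391-35916690 (minus strand) for Mrps18b, chr13:99344536-99344835 (plus strand) for Mrps27, chr4:155802628-155802927 (plus strand) for Mrpl20, chr3:95871465-95871764 (minus strand) for Mrps21 and chr13:100744610-100744909 (minus strand) for Mrps36. Capitals mark matches, on either strand, to 4 motifs of factors known to act at nuclear genes for mitochondrial proteins or growth: the NRF1 core GCATGCGC, the ETS motif CCGGAAG of GABP and its relatives, the YY1 motif AAGATGGCG and the E-box CACGTG.
Mrps18b: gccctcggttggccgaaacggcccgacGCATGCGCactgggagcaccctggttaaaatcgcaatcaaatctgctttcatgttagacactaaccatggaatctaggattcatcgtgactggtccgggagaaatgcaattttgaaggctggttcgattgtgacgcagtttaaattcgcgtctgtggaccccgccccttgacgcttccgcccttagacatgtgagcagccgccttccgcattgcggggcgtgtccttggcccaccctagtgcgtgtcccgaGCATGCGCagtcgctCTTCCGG
Mrps27: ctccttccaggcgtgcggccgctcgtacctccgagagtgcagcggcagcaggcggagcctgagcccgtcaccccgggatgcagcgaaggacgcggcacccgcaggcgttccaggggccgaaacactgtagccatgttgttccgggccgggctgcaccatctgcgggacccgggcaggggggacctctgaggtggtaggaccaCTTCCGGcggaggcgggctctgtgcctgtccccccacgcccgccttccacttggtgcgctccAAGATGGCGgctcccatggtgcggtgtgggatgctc
Mrpl20: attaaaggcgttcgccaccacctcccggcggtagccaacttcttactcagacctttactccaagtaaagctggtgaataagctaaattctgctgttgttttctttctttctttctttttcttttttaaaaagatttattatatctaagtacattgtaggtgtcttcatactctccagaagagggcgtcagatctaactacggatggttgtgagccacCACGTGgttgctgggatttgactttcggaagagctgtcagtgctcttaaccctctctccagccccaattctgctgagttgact
Mrps21: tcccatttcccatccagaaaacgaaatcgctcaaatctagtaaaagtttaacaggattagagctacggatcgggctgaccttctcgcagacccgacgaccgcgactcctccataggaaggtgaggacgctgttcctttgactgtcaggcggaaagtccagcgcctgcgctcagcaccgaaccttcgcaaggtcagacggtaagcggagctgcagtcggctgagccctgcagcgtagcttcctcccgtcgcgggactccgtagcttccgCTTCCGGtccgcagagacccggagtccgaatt
Mrps36: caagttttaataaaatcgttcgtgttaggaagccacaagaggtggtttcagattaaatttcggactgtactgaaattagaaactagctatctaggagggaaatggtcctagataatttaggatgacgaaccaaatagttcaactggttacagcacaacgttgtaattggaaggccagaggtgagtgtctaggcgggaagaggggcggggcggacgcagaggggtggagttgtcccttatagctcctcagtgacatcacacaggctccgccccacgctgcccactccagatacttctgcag
In these windows no match overlapped another. The Mrps18b window held 2 NRF1 cores, beginning at positions -223 and 28 (counted from 0 at the RefSeq start, at the leftmost base of the match), and an ETS match at position 43. That window lies upstream of the GENCODE gene body and reaches into Ppp1r10, its head-to-head neighbour. Mrps27 had an ETS match at position -48 and a YY1 match at position 14, Mrpl20 an E-box at position -33 and Mrps21 an ETS match at position 18. Mrps36 held none of the 4 motifs. RefSeq windows were found for 68 of the 77 genes. The ETS motif was in 25 of them (36.8%), against 23.5% of the 8022 protein-coding genes of the same filter that had a window. The YY1 motif was in 8 (11.8%, against 4.26%), the NRF1 core in 7 (10.3%, against 6.86%) and the E-box in 5 (7.35%, against 12.5%). Of the 13 genes with a window that rose after PHZ in Mx1-Cre cells, 3 held the YY1 motif and 4 the ETS motif. Of the 16 that fell after PHZ in P95H cells, 0 held the YY1 motif and 7 the ETS motif. These counts describe letters in a window and say nothing about the factors.

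Expression of these genes was high and even. Values are the authors' normalised expression, a length-scaled unit like TPM, and each comparison below was tested with limma on log2(value + 1) over all 10890 genes. The median gene averaged 97.8 over the 20 libraries (quartiles 71.5 and 123), whereas the median of all genes kept was 22.8. All but 6 of the 77 averaged at least 50, and 63 lay between 50 and 200. Within groups the coefficient of variation of the median gene was 7.18%, against 9.32% over all genes kept. The most even was Mrpl10 (4.06%) and the least even Mrpl23 (27.8%).

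On the same length-scaled unit, Mrpl52, a protein specific to the mitochondrial large subunit, had the highest mean (379). It was followed by Mrpl12 (277), the stalk protein that recruits translation factors and that in human cells also binds the mitochondrial RNA polymerase, and by Mrpl18 (271), of the central protuberance. The spread of Mrpl12 over libraries (217 to 330) overlapped that of Mrpl18 (225 to 308). Mrpl52 ranged from 287 to 491. At the low end stood Mrpl23 (8.37), Mrps6 (36.0) and Mrps31 (39.5). Mrps6 and Mrps31 overlapped in range, at 28.5 to 43.4 and 34.2 to 43.2.

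Mrpl23, whose bacterial relative lies at the exit of the peptide tunnel, has a near-identical copy elsewhere in the genome. Mrpl23-ps1 on chromosome 2 (74591330 to 74591909, minus strand, GRCm38) is annotated as a processed pseudogene and averaged 141. Of its 580 bases, 540 aligned to transcript Mrpl23-201 without a mismatch or a gap. Reads from the coding gene and this copy can therefore be split by the counting, and Mrpl23 took between 1.4% and 11.3% of their joint value in the P95H libraries and between 3.56% and 7.58% in the Mx1-Cre libraries. The joint value averaged 124 ± 12.6 in P95H PHZ, 161 ± 12.5 in P95H PBS, 146 ± 13.6 in Mx1-Cre PHZ and 164 ± 8.57 in Mx1-Cre PBS (SD, n = 5 each). The values of Mrpl23 itself are uncertain for this reason. Named pseudogenes of Mrpl48 and Mrps36 were listed at no more than 0.45 in any library.

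Summed over the 77 genes, the values were close in the 4 groups. The sum was 8257 ± 515 in P95H PHZ and 8667 ± 487 in P95H PBS, and 8639 ± 513 in Mx1-Cre PHZ and 8266 ± 277 in Mx1-Cre PBS (SD, n = 5 each). Libraries ranged from 7430 to 8803, 8121 to 9381, 8002 to 9422 and 7924 to 8689 in the same order of groups, so all 4 groups overlapped. These sums include the authors' scaling factor per library, of 0.9401 to 1.0956. As a share of each library the genes took 0.879%, 0.855%, 0.876% and 0.813% on average in that order. By share, PHZ was thus above PBS in P95H cells, the reverse of the sums. The ratio of the large-subunit sum to the small-subunit sum averaged 2.21 in P95H PHZ, 2.19 in P95H PBS, 2.21 in Mx1-Cre PHZ and 2.19 in Mx1-Cre PBS. In bulk samples, fewer cells of a type and less RNA per cell cannot be told apart.

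**Figure D1:**
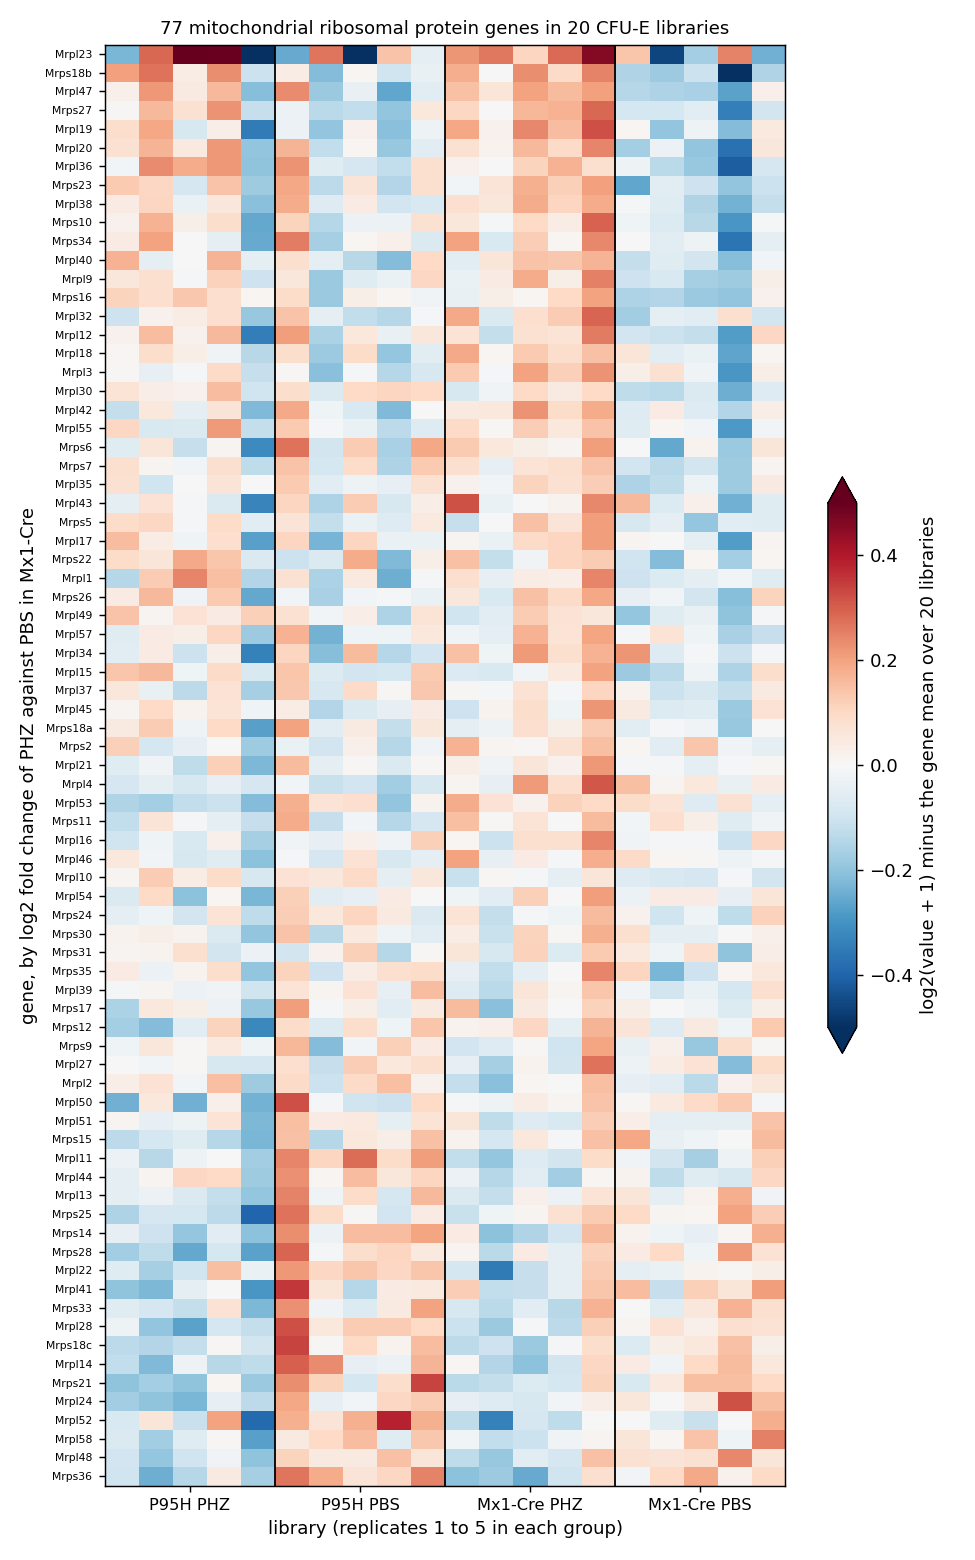
Rows are the 77 genes, ordered by the log2 fold change of PHZ against PBS in Mx1-Cre, and columns are the 20 libraries by group; colour is log2(value + 1) minus the gene's mean, limited to 0.5 in either direction. Whole columns are shaded together, beside the group differences at the top and bottom of the order. For most genes P95H PHZ 5 (sum 7430) and Mx1-Cre PBS 4 (sum 7924) are low. Mx1-Cre PHZ 5 (sum 9422) and P95H PBS 1 (sum 9381) are high for most genes. The values include the authors' scaling factor per library, which is 1.0956 for P95H PBS 1. As a share of the library, P95H PBS 1 (0.865%) lies inside its group's range (0.804% to 0.893%). By share, P95H PHZ 5 (0.801%) and Mx1-Cre PBS 4 (0.741%) remain lowest, and Mx1-Cre PHZ 5 (0.91%) highest, in their groups.

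The sorted cells expressed erythroid genes at high levels, with the erythroid transcription factors Klf1 at 289 to 404 and Gata1 at 172 to 247 over the 20 libraries. Of the 13 CFU-E and erythroid markers kept, 2 rose and 5 fell after PHZ in P95H cells (median log2 fold change -0.22), and 2 rose and 3 fell in Mx1-Cre cells (-0.16). Granulocyte and monocyte markers differed between groups. Their sum over the 17 markers kept of 18 was 348 ± 174 in P95H PHZ (156 to 586) and 1397 ± 754 in P95H PBS (549 to 2420), and 417 ± 386 in Mx1-Cre PHZ (148 to 1062) and 650 ± 213 in Mx1-Cre PBS (445 to 941; SD, n = 5 each). Among the 17, Elane and Mpo ranged from 1.42 to 71.5 and from 2.30 to 74.9, so the highest sums came mostly from other markers of the list. The highest sums were in P95H PBS libraries 4 and 5, at 1808 and 2420. Of 10 lymphoid markers 2 passed the filter, of 8 megakaryocyte markers 4, and of 8 macrophage and 8 basophil and mast cell markers 1 each. After PHZ, 2 of the 4 megakaryocyte and 2 of the 2 lymphoid markers kept fell in P95H cells, and 3 of the 4 and 1 of the 2 fell in Mx1-Cre cells. The basophil and mast cell marker rose in both (log2 fold changes 1.06 and 0.60), and the macrophage marker passed in neither. For the results below, the granulocyte and monocyte markers were followed only through a fit with their mean as a covariate. The part of the other markers was not tested. Srsf2 itself averaged 586 in P95H PHZ, 623 in P95H PBS, 685 in Mx1-Cre PHZ and 679 in Mx1-Cre PBS; a gene-level value does not show a point mutation.

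The first comparison asked how the genes responded to PHZ in P95H cells. After PHZ, 18 of the 77 fell and 0 rose, and the changes were small, the lowest at 0.814 of the PBS level. The 4 with the largest decreases were Mrps36, Mrps21, Mrps28 and Mrpl28. Over all genes, 17.7% fell and 12.6% rose at the same threshold (limma, Benjamini-Hochberg adjusted p under 0.05; 23 of the 77 had an unadjusted p under 0.05 in either direction). The share of these genes that fell, 23.4%, stood near that background, and the 0.0% that rose was below the 12.6% of all genes. The median log2 fold change was -0.03, against -0.02 over all genes, with single genes between -0.30 and 0.40 and a median standard error of 0.0669. The gene at 0.40 was Mrpl23 (SE 0.28), which did not pass.

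Mrps36 was at 197, 178, 191, 218 and 188 in P95H PHZ libraries 1 to 5, against 254, 240, 221, 227 and 251 in P95H PBS. All PHZ libraries lay below all PBS libraries. The log2 fold change was -0.30 ± 0.0647 (SE; limma adjusted p = 0.0015). In Mx1-Cre cells the same gene fell by 0.21 on the log2 scale after PHZ (SE 0.0647, limma adjusted p = 0.0169), at 183, 186, 177, 197 and 223 in PHZ, against 209, 226, 241, 214 and 226 in PBS. There the groups overlapped through PHZ library 5, and without PBS library 3 or PHZ library 3 the adjusted p was 0.05 and 0.0564.

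Mrps21 encodes bS21m of the small-subunit platform. Its values were 184, 188, 184, 213 and 186 in P95H PHZ, against 249, 229, 199, 225 and 268 in P95H PBS. PHZ library 4 lay above PBS library 3, and the others did not overlap. It fell by 0.29 on the log2 scale (SE 0.0704, limma adjusted p = 0.00371). In Mx1-Cre cells the values were 193, 195, 202, 199 and 229 in PHZ, against 201, 219, 235, 235 and 227 in PBS, and the difference did not pass with the deposited values (log2 fold change -0.13, limma adjusted p = 0.162). With quantile normalization it did (-0.20, limma adjusted p = 0.0222).

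Mrps28, the small-subunit protein bS1m, was at 80.0, 82.8, 75.6, 85.0 and 75.0 in P95H PHZ, against 111, 90.1, 96.1, 97.4 and 93.5 in P95H PBS. The groups did not overlap, and the log2 fold change was -0.29 ± 0.06 (SE; limma adjusted p = 0.00104). Mrpl28, the large-subunit protein bL28m, was at 142, 126, 120, 136 and 133 in P95H PHZ, against 181, 150, 158, 158 and 155 in P95H PBS. Again no library overlapped (log2 fold change -0.28 ± 0.0598 SE, limma adjusted p = 0.00109). In Mx1-Cre cells Mrps28 (-0.08) and Mrpl28 (-0.11) did not pass with the deposited values, and both fell with quantile normalization, at -0.16 and -0.18 (limma adjusted p = 0.0334 and 0.00547).

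The other 14 that fell in P95H cells were Mrpl11, Mrpl13, Mrpl14, Mrpl22, Mrpl24, Mrpl41, Mrpl48, Mrpl52, Mrpl53, Mrpl58, Mrps14, Mrps15, Mrps18c and Mrps25, at log2 fold changes from -0.26 to -0.17. Mrpl11, the uL11m protein at the base of the factor-binding stalk, was at 99.2, 91.8, 99.5, 101 and 89.5 in P95H PHZ, against 120, 109, 123, 108 and 117 in P95H PBS. The groups were separate, and it fell by 0.26 on the log2 scale (SE 0.0605, limma adjusted p = 0.00269), or by 0.15 with the authors' scaling factor per library divided out (limma adjusted p = 0.0506). Mrpl58, an unusual subunit that can release peptides from stalled mitochondrial ribosomes, fell by 0.19 on the log2 scale (SE 0.0608, limma adjusted p = 0.0216). Its values were 64.7, 60.1, 65.2, 68.2 and 56.1 in P95H PHZ, against 70.2, 72.9, 75.8, 65.2 and 74.8 in P95H PBS, with an overlap at PBS library 4. That call was lost with the factor divided out (-0.09) and without any 1 of P95H PBS 3 or 5 or PHZ 2 or 5, at limma adjusted p of 0.0525 to 0.062. By structure, the calls covered 11 of 50 large-subunit and 6 of 26 small-subunit genes, and 11 of 45 bacterial homologues and 6 of 31 mitochondria-specific genes. The median log2 fold change was -0.03 for the large and -0.02 for the small subunit.

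These calls depended on how the libraries were scaled. With the authors' factor per library divided out, 5 of the 77 fell (6.49%) and 10 rose (13.0%) in P95H cells after PHZ. Over all genes 10.3% fell and 23.6% rose at that setting, and the median over all genes moved to 0.08 and that of the 77 to 0.07. With quantile normalization 18 fell (23.4%) and 1 rose (1.3%), against 15.7% and 15.5% of all genes. Mrpl24, Mrpl28, Mrps21, Mrps28 and Mrps36 fell under all 3 scalings. All 17 granulocyte and monocyte markers kept fell in the same comparison, with a median log2 fold change of -1.83. With their mean as a covariate, 1 of the 77 fell (Mrpl53), while calls over all genes dropped to 990 (5.04% lower and 4.05% higher). The 18 estimates all stayed below 0, between -0.27 and -0.08, with a median of -0.18, against -0.23 without the covariate. Mrps28 was at -0.27 (limma adjusted p = 0.0539) and Mrps25 at -0.25 (0.123). Without P95H PBS libraries 4 and 5, 13 fell (16.9%) and 0 rose (0.0%), against 11.6% and 7.69% of all genes.

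**Figure D2:**
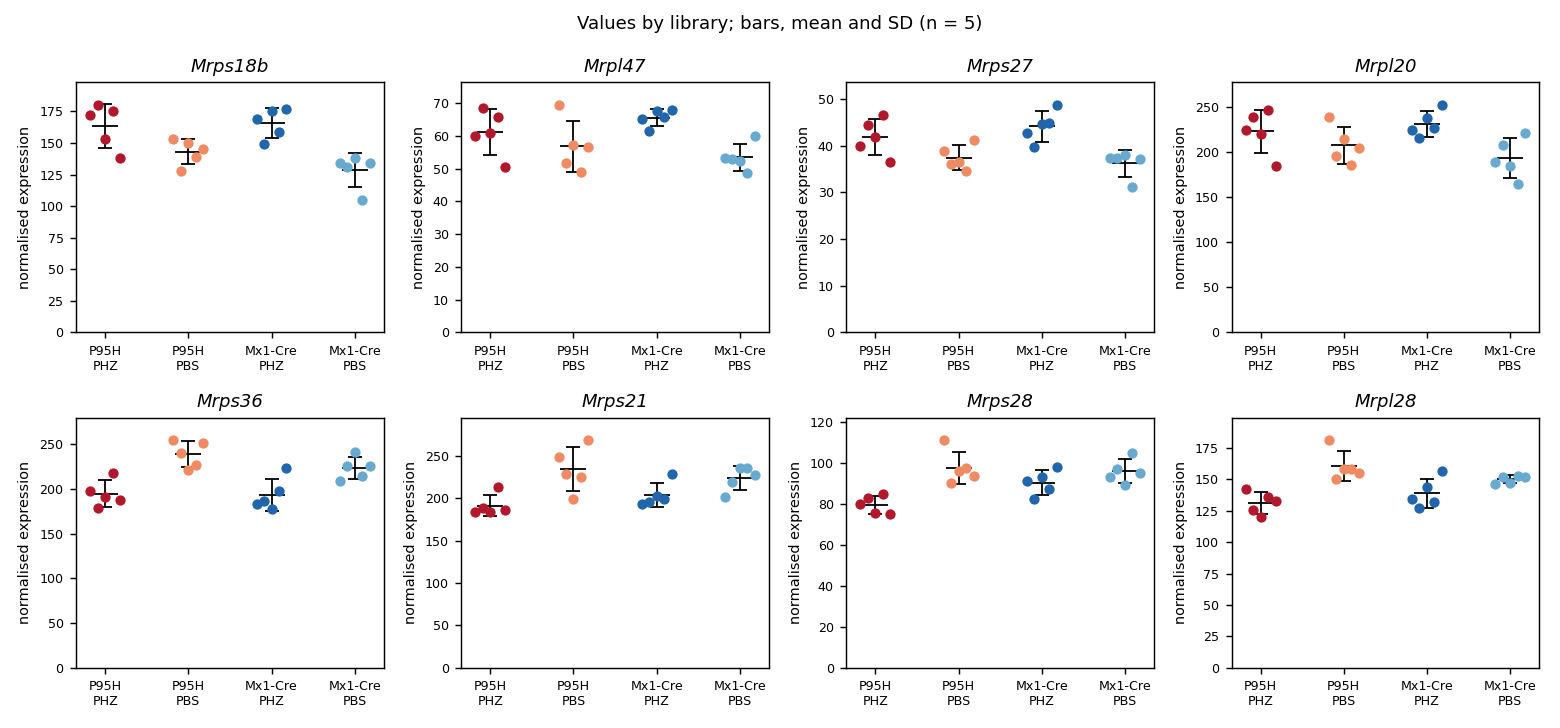
Normalised expression of the 4 genes with the largest increases among those that passed in Mx1-Cre cells (top left to right: Mrps18b, Mrpl47, Mrps27, Mrpl20) and the 4 with the largest decreases among those that passed in P95H cells (Mrps36, Mrps21, Mrps28, Mrpl28) in each library, with mean and SD (n = 5 per group). The axes start at 0, so the size of the shifts can be seen against the level: Mrps18b averaged 166 in Mx1-Cre PHZ and 128 in Mx1-Cre PBS.

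In Mx1-Cre cells most of the genes that passed after PHZ were higher. There 15 of the 77 rose and 2 fell. Of these, Mrps18b, Mrpl47, Mrps27 and Mrpl20 had the largest increases, none above 1.29-fold, and Mrps36 and Mrpl48 fell. Over all genes 17.0% rose and 14.9% fell, so the 19.5% of these genes that rose was near the background, and the 2.6% that fell was below it. The median log2 fold change was 0.07, against 0.00 over all genes, with a range from -0.21 to 0.37.

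Mrps18b is one of 3 mammalian relatives of bacterial S18 and encodes mS40 of the small subunit. In Mx1-Cre cells it was at 169, 149, 175, 159 and 177 in PHZ libraries 1 to 5, against 134, 131, 138, 105 and 134 in PBS. No library overlapped, and the log2 fold change was 0.37 ± 0.0801 (SE; limma adjusted p = 0.00146). In P95H cells it was at 172, 180, 153, 175 and 138 in PHZ, against 153, 128, 150, 139 and 145 in PBS. Those groups overlapped and the difference of 0.19 on the log2 scale did not pass (limma adjusted p = 0.0823). With the factor divided out it did pass, at 0.29 (limma adjusted p = 0.0078), as it did with quantile normalization, at 0.20 (limma adjusted p = 0.0268), without P95H PHZ library 5, at 0.25 (limma adjusted p = 0.0183), and without Mx1-Cre PBS library 4 (limma adjusted p = 0.0433). Ppp1r10, the head-to-head neighbour whose product targets protein phosphatase 1 to the nucleus, also rose in Mx1-Cre cells (log2 fold change 0.23 ± 0.0697 SE, limma adjusted p = 0.0149).

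Neither of the other relatives of bacterial S18 passed as higher. Mrps18a averaged 100 ± 10.6 in P95H PHZ, 102 ± 8.91 in P95H PBS, 102 ± 5.12 in Mx1-Cre PHZ and 96.3 ± 5.23 in Mx1-Cre PBS (SD, n = 5 each), and passed in no comparison. Mrps18c, which encodes bS18m, fell in P95H cells (log2 fold change -0.22 ± 0.0634 SE, limma adjusted p = 0.011), at 108, 107, 109, 119 and 111 in PHZ, against 150, 119, 127, 120 and 132 in PBS. PHZ library 4 reached the lowest PBS library, and with the factor divided out the gene did not pass (limma adjusted p = 0.0964). The differences between the 3 relatives were not tested.

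Mrpl47, the uL29m protein near the exit of the peptide tunnel, was at 65.2, 61.4, 67.7, 65.7 and 68.0 in Mx1-Cre PHZ, against 53.2, 52.8, 52.4, 48.7 and 59.9 in Mx1-Cre PBS. The groups were separate (log2 fold change 0.29 ± 0.0829 SE, limma adjusted p = 0.00992), and with the granulocyte and monocyte covariate the estimate was 0.25 (limma adjusted p = 0.057). Mrps27, a pentatricopeptide-repeat protein of the small subunit, was at 42.7, 39.7, 44.7, 44.9 and 48.7 in Mx1-Cre PHZ, against 37.3, 37.3, 38.1, 31.1 and 37.2 in Mx1-Cre PBS. These too were separate (log2 fold change 0.28 ± 0.0708 SE, limma adjusted p = 0.00486). Mrpl20, whose bacterial relative binds the large-subunit RNA early in assembly, was at 224, 215, 238, 227 and 252 in Mx1-Cre PHZ, against 189, 208, 185, 164 and 221 in Mx1-Cre PBS. One PBS library, the fifth, lay within the PHZ range (log2 fold change 0.26 ± 0.0834 SE, limma adjusted p = 0.0198), and the adjusted p was 0.0723 without PBS library 4 and 0.0785 with the covariate (0.24).

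The remaining 11 that rose in Mx1-Cre cells were Mrpl9, Mrpl19, Mrpl30, Mrpl35, Mrpl36, Mrpl38, Mrpl40, Mrps7, Mrps10, Mrps16 and Mrps23, at log2 fold changes from 0.15 to 0.26. Mrpl48, of the central protuberance, fell by 0.17 on the log2 scale (SE 0.0572, limma adjusted p = 0.031). Its values were 70.9, 67.7, 74.3, 72.9 and 85.7 in Mx1-Cre PHZ, against 81.7, 80.9, 81.7, 91.5 and 80.8 in Mx1-Cre PBS, with PHZ library 5 inside the PBS range. That call was lost with the factor divided out (limma adjusted p = 0.0593), without the filter (0.0506), and without PBS library 4 or any 1 of PHZ libraries 1 to 4 (0.0551 to 0.0998). Mrpl48 and Mrps36 were the 2 genes that fell in both genotypes, 11.1% of the 18 that fell in P95H and 100.0% of the 2 that fell in Mx1-Cre cells; over all genes 1148 fell in both, 59.7% of those that fell in P95H and 71.0% of those that fell in Mx1-Cre cells. Of the 15 that rose in Mx1-Cre cells, 0 rose and 0 fell in P95H cells, against 56.9% and 0.0% of all 1856 genes that rose in Mx1-Cre cells. The rises covered 9 of 50 large-subunit and 6 of 26 small-subunit genes (medians 0.08 and 0.06), and 10 of 45 bacterial homologues and 5 of 31 mitochondria-specific genes.

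The direction of the balance in Mx1-Cre cells also rested on the scaling. With the factor divided out 23 rose (29.9%) and 1 fell (1.3%), against 20.5% and 11.2% of all genes. With quantile normalization 7 rose (9.09%) and 10 fell (13.0%), against 15.8% and 15.8% of all genes. Mrpl20, Mrpl38, Mrpl47, Mrps16, Mrps18b, Mrps23 and Mrps27 rose, and Mrps36 fell, under all 3 scalings. The number that rose was 7 without PBS library 4, 7 without PHZ library 3, 9 without PHZ library 4 and 8 without PHZ library 5. Those were 9.09%, 9.09%, 11.7% and 10.4% of the 77, below the 12.6%, 13.3%, 14.8% and 16.5% of all genes. Without PHZ library 2 it was 18 (23.4%, against 15.6% of all genes). Of the granulocyte and monocyte markers, 1 of 17 fell in this comparison (median log2 fold change -0.91), and with their mean as a covariate 9 of the 77 rose and 0 fell, against 12.1% and 9.96% of all genes. The 15 estimates all stayed above 0 there, between 0.17 and 0.35, with a median of 0.24 both with and without the covariate. The part of the granulocyte and monocyte markers in these results was not tested beyond that fit.

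**Figure D3:**
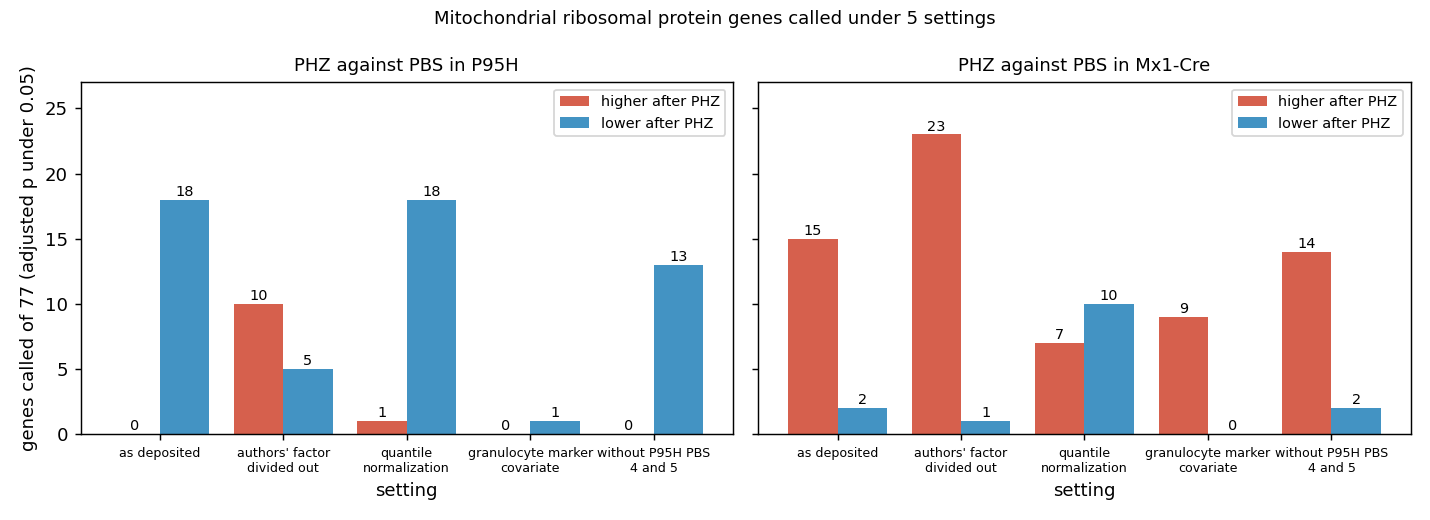
Number of the 77 genes called higher or lower after PHZ (limma, adjusted p under 0.05) in P95H cells on the left and Mx1-Cre cells on the right, under 5 settings. In P95H cells the balance is 0 higher and 18 lower with the deposited values, and 10 higher and 5 lower after division by the authors' factor; in Mx1-Cre cells quantile normalization gives 7 higher and 10 lower.

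The 2 genotypes were then compared directly. Among PBS libraries, 0 of the 77 genes rose and 0 fell in P95H cells by limma's adjusted p, and 11 had an unadjusted p under 0.05; over all genes 0.358% rose and 1.12% fell, and 1539 had an unadjusted p under 0.05. The lowest adjusted p of the 77 was 0.0731. That gene was Mrpl30, the uL30m protein, at 238, 213, 240, 241 and 240 in P95H PBS, against 205, 204, 213, 189 and 214 in Mx1-Cre PBS. P95H library 2 fell just inside the Mx1-Cre range (log2 fold change 0.19 ± 0.0538 SE), and without it the limma adjusted p was 0.0347. Mrpl11 followed, at 120, 109, 123, 108 and 117 in P95H PBS, against 100, 94.9, 90.2, 99.3 and 110 in Mx1-Cre PBS (log2 fold change 0.22, limma adjusted p = 0.0734, or 0.0334 without Mx1-Cre library 5). Mrpl11 and Mrpl30 passed with quantile normalization, with limma adjusted p of 0.0485 and 0.0389. The median of the 77 was 0.05, against -0.03 over all genes.

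After PHZ, 1 of the 77 genes, Mrpl53, was lower in P95H cells than in Mx1-Cre cells, and 0 were higher. Over all 77, 18 had an unadjusted p under 0.05; over all genes 4.37% were lower and 1.1% higher. Mrpl53 encodes mL53, a mitochondria-specific protein of the large subunit. It was at 62.0, 61.1, 63.1, 63.8 and 59.2 in P95H PHZ, against 78.5, 72.5, 70.0, 74.8 and 73.8 in Mx1-Cre PHZ. The groups did not overlap (log2 fold change -0.25 ± 0.0575 SE, limma adjusted p = 0.0117). With the factor divided out (-0.19, limma adjusted p = 0.106) or quantile normalization (-0.19, limma adjusted p = 0.078) it did not pass. In PBS the gene averaged 70.6 ± 6.69 in P95H and 70.2 ± 3.57 in Mx1-Cre cells (SD, n = 5 each). Mrpl53 overlaps Gm42688 on the same strand and Ccdc142os on the opposite one, so its value may include their reads.

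Next in that comparison came Mrpl4 and Mrps28, neither of which passed. Mrpl4, the uL4m protein that reaches into the peptide tunnel, was at 56.6, 58.1, 56.7, 58.3 and 56.5 in P95H PHZ, against 60.6, 58.2, 69.7, 63.6 and 74.7 in Mx1-Cre PHZ (log2 fold change -0.18, limma adjusted p = 0.0644, or 0.0275 without Mx1-Cre library 2). Under PBS it was at 59.4, 55.5, 56.0, 53.1 and 56.7 in P95H, against 66.7, 60.6, 62.3, 58.5 and 61.8 in Mx1-Cre cells (log2 fold change -0.14, limma adjusted p = 0.26). Mrps28 averaged 79.7 ± 4.37 in P95H PHZ and 90.4 ± 5.98 in Mx1-Cre PHZ (SD, n = 5 each; log2 fold change -0.18, limma adjusted p = 0.0828). The median of the 77 was -0.07, against -0.05 over all genes, and 63 of the 77 lay below 0, as did 67.6% of all genes. With the factor divided out 45 lay below 0 and with quantile normalization 37, at medians of -0.01 and 0.00.

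Whether PHZ acted differently in the 2 genotypes was tested as an interaction. By limma's adjusted p, 0 of the 77 genes passed in either direction, and 0.0% of all genes did so upward and 0.0% downward. At an unadjusted p under 0.05 there were 10 of the 77 and 577 of all genes. Yet 76 of the 77 estimates were below 0, at a median of -0.12, while 57.7% of all genes were below 0, at a median of -0.03. The estimates share the same 20 libraries and are not independent of one another, and with the factor divided out or with quantile normalization 64 of the 77 were below 0. The cytosolic ribosomal protein genes and the nuclear-encoded subunits of oxidative phosphorylation (OXPHOS) also had a median of -0.12. The 3 smallest unadjusted p were those of Mrpl53 (-0.26 ± 0.0813 SE), Mrpl38 (-0.24) and Mrps6 (-0.31), each at a limma adjusted p of 0.798.

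**Figure D4:**
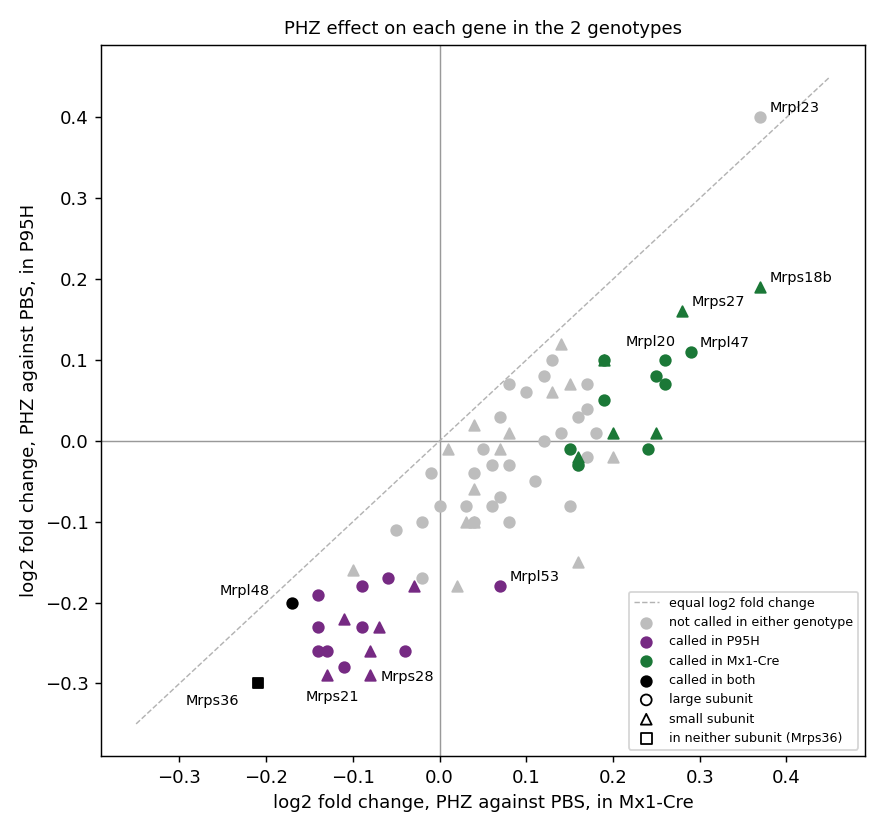
Each point is 1 of the 77 genes, with its log2 fold change of PHZ against PBS in Mx1-Cre cells on the x axis and in P95H cells on the y axis; symbols give the subunit and colours the calls. All points but Mrpl23 lie below the dashed line of equal change, although the difference passed the test for none of them; 15 genes rose in Mx1-Cre cells and 18 fell in P95H cells.

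Several members with other known roles did not pass in either PHZ comparison with the deposited values. Mrpl12 averaged 279 ± 37.4 in P95H PHZ and 281 ± 26.5 in P95H PBS, and 290 ± 26.8 in Mx1-Cre PHZ and 258 ± 24.5 in Mx1-Cre PBS (SD, n = 5 each). Mrps12, whose bacterial relative sits at the decoding centre, averaged 66.9 ± 7.95 in P95H PHZ and 75.4 ± 4.58 in P95H PBS (log2 fold change -0.18, limma adjusted p = 0.0537), and 75.7 ± 4.46 in Mx1-Cre PHZ and 74.6 ± 3.95 in Mx1-Cre PBS (SD, n = 5 each). In P95H cells it passed with quantile normalization and without P95H PBS library 2 or PHZ library 4, at limma adjusted p of 0.0419, 0.0363 and 0.00677. Its head-to-head neighbour Sars2, the mitochondrial seryl-tRNA synthetase, averaged between 32.0 and 32.9 in all 4 groups. Mrpl44, a large-subunit protein with a ribonuclease III-like fold, and Mrpl45, which in human mitochondria lies by the tunnel exit at the inner membrane, averaged 47.9 to 54.8 and 69.5 to 73.6 over the groups. Mrpl45, with the factor divided out, passed in P95H cells (0.18, limma adjusted p = 0.0278). Mrps30 averaged 72.8 to 77.3.

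Other genes for mitochondrial translation were followed as lists. Of the 5 mitochondrial ribosomal proteins with other symbols, Ptcd3, a pentatricopeptide-repeat protein of the small subunit, rose in both genotypes. It was at 120, 122, 123, 134 and 105 in P95H PHZ, against 113, 103, 105, 101 and 108 in P95H PBS (log2 fold change 0.19, limma adjusted p = 0.00733), and at 127, 130, 132, 129 and 131 in Mx1-Cre PHZ, against 112, 114, 113, 112 and 114 in Mx1-Cre PBS (0.20, limma adjusted p = 0.00477). The Mx1-Cre groups were separate and the P95H groups overlapped, and with the granulocyte and monocyte covariate the P95H call was lost (0.14, limma adjusted p = 0.241). Dap3, a GTP-binding protein of the small subunit, fell in P95H cells (-0.21, limma adjusted p = 0.00826) and did not pass with the factor divided out (-0.10, limma adjusted p = 0.0949).

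Of 28 genes for ribosome assembly and ribosomal RNA modification, 3 rose and 1 fell after PHZ in P95H cells, and 5 rose and 0 fell in Mx1-Cre cells. Division by the factor gave 7 and 9 that rose and 0 that fell in either. At that setting 23.6% of all genes rose in P95H and 20.5% in Mx1-Cre cells, against 12.6% and 17.0% with the deposited values. Gtpbp10, a GTPase that in human cells helps to build the large subunit, averaged 25.4 ± 3.59 in P95H PHZ and 16.8 ± 0.56 in P95H PBS, and 24.6 ± 1.79 in Mx1-Cre PHZ and 17.8 ± 1.64 in Mx1-Cre PBS (SD, n = 5 each; log2 fold changes 0.56 and 0.45, limma adjusted p = 2.21e-05 and 0.000278). Fastkd2, an RNA-binding assembly factor of the large subunit, averaged 60.6 ± 6.18 in P95H PHZ and 44.1 ± 3.64 in P95H PBS, and 59.6 ± 1.61 in Mx1-Cre PHZ and 45.2 ± 3.15 in Mx1-Cre PBS (SD, n = 5 each; 0.45 and 0.40, limma adjusted p = 4.54e-05 and 0.000187). For both genes PHZ and PBS libraries did not overlap in either genotype, and both kept passing in every alternative that was run. Noa1, a GTPase linked to small-subunit assembly, rose in Mx1-Cre cells (0.35, limma adjusted p = 0.000829). Malsu1, which keeps the large subunit from joining too early, fell in P95H cells (-0.28, limma adjusted p = 0.018), a call that was lost with the factor divided out, and without P95H PBS library 1, PHZ library 1 or PHZ library 5 (0.0613, 0.0513 and 0.0526).

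Among 17 translation factors and related genes, 3 rose and 1 fell after PHZ in P95H cells, and 4 rose and 0 fell in Mx1-Cre cells. In P95H cells 7 rose with the factor divided out and 0 with the granulocyte and monocyte covariate, while 23.6% and 4.05% of all genes rose. Gfm2, which helps to split the ribosome for recycling, rose in both genotypes (0.29 in P95H and 0.26 in Mx1-Cre cells), as did Letm1, an inner membrane protein that binds mitochondrial ribosomes in yeast (0.23 and 0.41). In P95H cells the covariate left Gfm2 at 0.18 (limma adjusted p = 0.0855) and Letm1 at 0.20 (0.235), and Letm1 did not pass without P95H PBS libraries 4 and 5 (0.21, limma adjusted p = 0.0799). Gfm1, the elongation factor that moves the ribosome along, averaged 113 ± 9.78 in Mx1-Cre PHZ and 85.6 ± 7.37 in Mx1-Cre PBS (SD, n = 5 each; 0.39, limma adjusted p = 0.000313), and rose in P95H cells by 0.21 on the log2 scale (limma adjusted p = 0.0305). Mtrf1l, a release factor, fell in P95H cells (-0.36, limma adjusted p = 0.00515). Lrpprc, which stabilises mitochondrial mRNA, rose in Mx1-Cre cells by 0.12 on the log2 scale (limma adjusted p = 0.0497), and Tufm, the elongation factor that delivers tRNAs, passed in neither genotype.

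Guf1, a translation factor related to bacterial LepA, differed between genotypes, and passed in neither PHZ comparison. It was at 33.1, 31.0, 32.3, 31.8 and 33.0 in P95H PHZ, against 41.2, 40.0, 40.4, 40.4 and 40.5 in Mx1-Cre PHZ. Under PBS the values were 32.8, 33.5, 30.3, 28.3 and 31.7 in P95H, against 40.2, 41.8, 41.6, 38.3 and 38.5 in Mx1-Cre cells. P95H libraries lay below the Mx1-Cre libraries without overlap under both treatments (log2 fold changes -0.32 and -0.35, limma adjusted p = 0.000537 and 0.000311). The call held in every alternative that was run, with log2 fold changes from -0.37 to -0.25.

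Cars2, the mitochondrial cysteinyl-tRNA synthetase, was also lower in P95H cells. It was at 27.8, 23.4, 24.5, 25.4 and 25.5 in P95H PHZ, against 36.0, 34.2, 35.1, 35.4 and 38.0 in Mx1-Cre PHZ. Under PBS it was at 30.7, 29.5, 26.7, 26.1 and 29.3 in P95H, against 36.9, 33.0, 35.3, 34.1 and 35.4 in Mx1-Cre cells. No library overlapped under either treatment (log2 fold changes -0.48 and -0.29, limma adjusted p = 4.61e-05 and 0.00666), and both calls held in every alternative that was run. Iars2, the isoleucyl enzyme, was also lower in P95H cells after PHZ (-0.25, limma adjusted p = 0.00669), but not with the factor divided out (-0.19, limma adjusted p = 0.0823).

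Of the 20 mitochondrial aminoacyl-tRNA synthetases, 2 rose and 2 fell after PHZ in P95H cells, and 4 rose and 1 fell in Mx1-Cre cells. After division by the factor 6 rose and 1 fell in each, while 23.6% of all genes rose in P95H and 20.5% in Mx1-Cre cells. With the covariate 0 rose in P95H and 1 in Mx1-Cre cells, against 4.05% and 12.1% of all genes. Fars2, the phenylalanyl enzyme, fell in both genotypes. It averaged 22.4 ± 0.456 in P95H PHZ and 29.7 ± 1.74 in P95H PBS (-0.39, limma adjusted p = 3.11e-05), and 24.7 ± 1.59 in Mx1-Cre PHZ and 31.8 ± 2.44 in Mx1-Cre PBS (-0.35, limma adjusted p = 0.000103; SD, n = 5 each). Lars2, the leucyl enzyme, rose in both (0.21 in P95H and 0.22 in Mx1-Cre cells), a call lost in P95H cells without PBS libraries 4 and 5 (limma adjusted p = 0.067) and with the covariate (0.16, limma adjusted p = 0.332). Yars2, the tyrosyl enzyme, rose in Mx1-Cre cells (0.36, limma adjusted p = 0.00424). Of 14 genes for mitochondrial DNA transcription and its nuclear regulators, 1 rose and 0 fell in P95H cells, and 2 rose and 1 fell in Mx1-Cre cells. Gabpa, the DNA-binding part of GABP, rose in both (0.32 and 0.21), and Yy1 rose in Mx1-Cre cells (0.17) and was lower in P95H cells than in Mx1-Cre cells after PHZ (-0.23, limma adjusted p = 0.00902). Neither Yy1 call held with quantile normalization. Ppargc1b, a coactivator of genes for mitochondrial proteins, was also lower after PHZ, at 3.39 ± 0.397 in P95H and 4.98 ± 0.56 in Mx1-Cre cells (SD, n = 5 each; -0.45, limma adjusted p = 0.00695). Its groups did not overlap, and the call held in every alternative that was run (-0.54 to -0.25). With the covariate 0 genes of this list passed for PHZ in either genotype. Without Mx1-Cre PBS library 4 the rise of Gabpa there did not pass (limma adjusted p = 0.0519). Tfam, which packages and transcribes mitochondrial DNA, averaged 81.5 to 83.3 and Polrmt, the mitochondrial RNA polymerase, 22.8 to 24.1 over the groups, and neither passed in any comparison.

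The cytosolic ribosome and the respiratory chain were set beside these genes. Of 78 cytosolic ribosomal protein genes, 1 rose and 65 fell after PHZ in P95H cells and 6 rose and 45 fell in Mx1-Cre cells, with median log2 fold changes of -0.35 and -0.23. Those that fell numbered 60 and 45 with the factor divided out and 26 and 19 with quantile normalization. Of 77 nuclear-encoded OXPHOS subunits, 0 rose and 50 fell in P95H cells and 1 rose and 17 fell in Mx1-Cre cells (medians -0.23 and -0.08). The OXPHOS genes that fell numbered 30 and 16 with the factor divided out and 47 and 33 with quantile normalization. With the granulocyte and monocyte covariate 7 and 11 cytosolic ribosomal genes and 9 and 8 OXPHOS genes fell. Over all genes 17.7% fell and 12.6% rose in P95H, and 14.9% fell and 17.0% rose in Mx1-Cre cells, with the deposited values. The shares that fell were 10.3% and 11.2% with the factor divided out and 15.7% and 15.8% with quantile normalization. With the covariate they were 5.04% and 9.96%. Of the 15 genes of mitochondrial DNA, 0 rose and 0 fell in either genotype by limma's adjusted p, and 0 had an unadjusted p under 0.05 there. Their log2 fold changes ran from -0.19 to 0.75 in P95H and from -0.38 to 0.16 in Mx1-Cre cells. Libraries spread widely within groups, with sums of 42392 to 77504 in P95H PHZ and 51931 to 93809 in Mx1-Cre PBS, so a lack of calls does not show stable levels. With quantile normalization 2 of these genes rose in P95H cells, while 15.5% of all genes did. Summed values of the cytosolic ribosomal genes took 17.0% of each library on average in P95H PHZ, 20.1% in P95H PBS, 17.3% in Mx1-Cre PHZ and 19.6% in Mx1-Cre PBS. The mitochondrial ribosomal genes took 0.879%, 0.855%, 0.876% and 0.813% in the same order of groups. The difference between the lists was not tested.

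**Figure D5:**
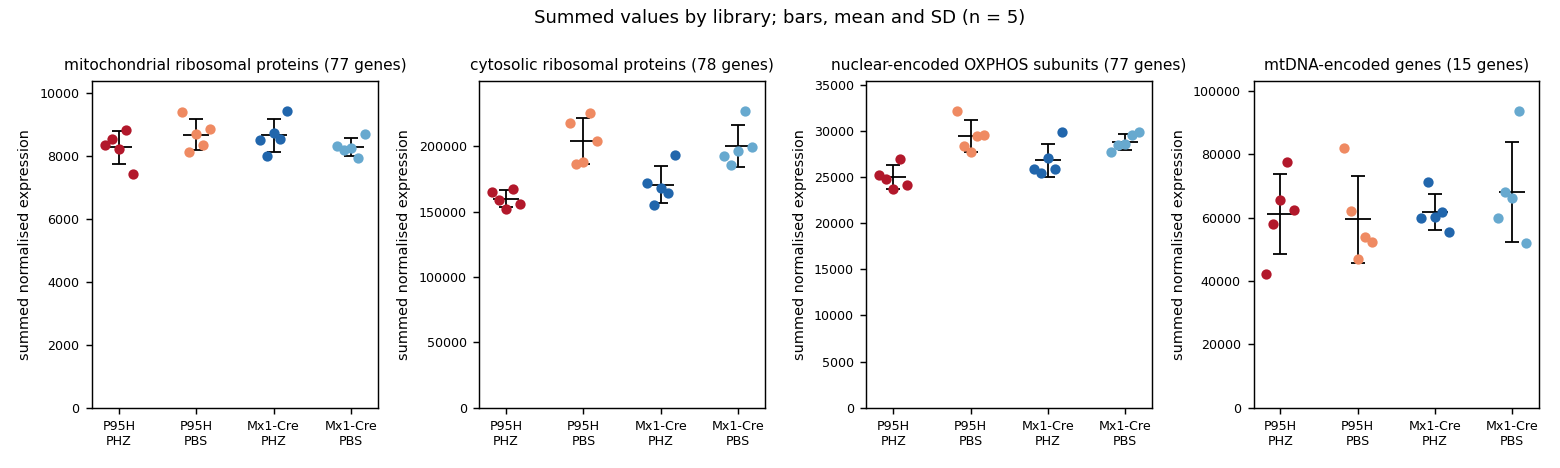
Summed normalised expression per library of the mitochondrial ribosomal protein genes, the cytosolic ribosomal protein genes, the nuclear-encoded OXPHOS subunits and the genes of mitochondrial DNA, with mean and SD (n = 5 per group). The cytosolic ribosomal sum is at 152280 to 167165 in P95H PHZ and 186387 to 225540 in P95H PBS, without overlap. In Mx1-Cre cells it is at 155286 to 193315 in PHZ and 185822 to 227036 in PBS, which overlap. The mitochondrial ribosomal sums of all 4 groups overlap.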

How the data were processed

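RNA from 20 sorted CFU-E samples was sequenced in paired-end libraries, per the labels' protocols. The values come from 1 table, a normalised signal per gene as the authors deposited it. The submitters' processing notes name TopHat, TopHat2 2.0.8b, Bowtie and RSEM 1.2.4, and the builds mm10, GRCm38, hg19 and GRCh37, without saying what each was used for. Each library's values were whole multiples of 0.01 (within 4.9e-09 of a step) times a single factor of 0.9401 to 1.0956, and the divided values summed to 979638 to 992743. Read counts cannot be had from this signal, so depth is unknown, and intervals or floors that need it are left out.

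Entries reaching 1 in 5 or more libraries were kept. Names and positions came from GENCODE vM21 (GRCm38), promoters from RefSeq (GRCm38.p6). With limma 3.58.1 (R 4.3.3), a model with a mean for each group was fitted to log2(value + 1) over the 20 libraries, with trended and robust moderation, two-sided, adjusted by Benjamini-Hochberg over the genes kept at 0.05. A fold change on this scale understates the change of low genes. P-values measure the spread between these libraries, which may be partly technical. In simulated data, 200 of 10890 genes were changed per comparison. For PHZ against PBS in Mx1-Cre, 28% of log2 changes of 0.25 and 80% of changes of 0.5 were recovered. For the interaction the shares were 6% and 57%. Alternatives were 2 other scalings, pseudocounts of 0.1 and 5, no filter, the compared groups alone, a replicate block, the marker mean as a covariate, and fits without P95H PBS libraries 4 and 5 or without each library in turn.

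The genes named are, per comparison, the 4 largest passing changes in each direction (or the 3 smallest p where fewer than 3 passed), members with a stated role, the 3 highest and 3 lowest means, and up to 3 passing genes of each other list. Genes beyond these are named to spell out a set counted in the text, after their values were seen. The genes and lists were chosen with earlier results of these data known.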

Additional observations from a re-analysis of the deposited data

Results flagged for a closer look

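Within groups of 5 libraries, 7 of 108 combinations of a named gene and a group had 1 library far from the other 4, where the gap to the nearest library was more than 0.71 of the group's whole range. Chance flags about 1 in 20 groups. In Mx1-Cre PBS library 4, Mrps18b was at 105, below 131 to 138 in the other 4 libraries. The same library held Mrps27 at 31.1, below 37.2 to 38.1, and Mrpl48 at 91.5, above 80.8 to 81.7. Without that library Mrps18b and Mrps27 still rose after PHZ in Mx1-Cre cells, and Mrpl48 no longer passed (limma adjusted p = 0.0998). Mrps21 was at 229 in Mx1-Cre PHZ library 5, above 193 to 202, and at 213 in P95H PHZ library 4, above 184 to 188. Mrpl28 was at 181 in P95H PBS library 1, above 150 to 158. Mrpl30 was at 213 in P95H PBS library 2, below 238 to 241.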

How the results depend on the processing

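Counts of the 77 genes moved with the scaling, with the marker covariate and with single libraries. With the authors' factor divided out, PHZ against PBS gave 10 higher and 5 lower in P95H and 23 higher and 1 lower in Mx1-Cre cells, P95H against Mx1-Cre after PHZ gave 0 lower, and calls over all genes there were 277. With quantile normalization the counts were 1 and 18 in P95H and 7 and 10 in Mx1-Cre cells, 2 were higher in P95H under PBS, 0 lower after PHZ, and 292 of all genes were called after PHZ. Over all genes, the share of PHZ calls that were higher was 41.6% in P95H and 53.4% in Mx1-Cre cells, 69.7% and 64.7% with the factor divided out, and 49.7% and 50% with quantile normalization; between genotypes it was 20.1% after PHZ and 24.2% under PBS, against 47.7% and 31.0% with the factor divided out and 44.2% and 39.4% with quantile normalization. With the marker covariate, 1 fell in P95H, 9 rose and 0 fell in Mx1-Cre cells, and 990 of all genes were called in P95H. Without P95H PBS libraries 4 and 5, all-gene calls were 2100 for PHZ in P95H and 98 for genotype under PBS. With the compared groups alone, 1 of the 77 fell in Mx1-Cre cells (1.3%, against 15.6% of all genes), and 78 (PBS) and 345 (PHZ) of all genes differed between genotypes. Without the filter, 1 fell in Mx1-Cre cells (1.3%, against 7.36% of all genes) and 1 of all genes passed the interaction. The causes were not tested.

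Leaving out 1 library at a time, the 77 gave 7 to 18 higher and 0 to 3 lower for PHZ in Mx1-Cre, 0 to 2 higher and 12 to 19 lower in P95H, 0 to 1 higher between genotypes under PBS and 1 to 2 lower after PHZ. All-gene calls ranged from 90 to 180 (PBS) and 319 to 696 (PHZ) between genotypes, 2593 to 3588 in Mx1-Cre and 2687 to 3487 in P95H. For PHZ in Mx1-Cre, 12.6% to 17.6% of all genes were higher and 11.2% to 15.5% lower. In P95H the shares were 9.95% to 13.8% and 14.6% to 18.2%. Between genotypes 0.193% to 0.432% were higher under PBS and 2.29% to 5.11% lower after PHZ.

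Signs changed for some values that did not pass. For PHZ in Mx1-Cre, Mrps12 was at -0.05 and Mrps30 at -0.03 with quantile normalization, and Mrpl11 at 0.01 with the factor divided out and with the covariate. Leaving out 1 library, Mrps12 ranged from -0.01 (without Mx1-Cre PHZ 5) to 0.05. For PHZ in P95H, the divided values gave 0.08 for Mrpl12, 0.07 for Mrps18a and 0.07 for Mrps30, and the covariate 0.00 for Mrpl12. Leaving out 1 library, Mrpl12 ranged from -0.07 to 0.07, Mrps18a from -0.07 to 0.04 and Mrps30 from -0.07 to 0.00, with the upper values without P95H PBS 1 or PHZ 5.

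Nothing states that a replicate number marks a shared animal, litter or day, and the correlations given here cannot exclude it. Deviations of same-numbered libraries correlated at -0.306 to 0.441 (30 pairs, median 0.0282, 13 over 0.1). For 120 other pairs the median was -0.0205, with 34 over 0.1. Of the 20 libraries, 4 correlated best with their own number. With the replicate block the 77 gave 0 higher and 18 lower in P95H, 15 and 3 in Mx1-Cre cells, 0 and 0 and 0 and 1 between genotypes, and 0 and 0 for the interaction. At that setting 12.9% of all genes were higher and 17.9% lower in P95H, and 17.3% and 15.6% in Mx1-Cre cells. Between genotypes the shares were 0.496% and 1.24% under PBS and 1.27% and 4.4% after PHZ, and 0.0% and 0.0% for the interaction. In the simulation, with 200 genes changed, most log2 changes of 0.25 were missed. Many more genes passed in the PHZ comparisons here, some at changes below 0.25, so its shares do not carry over to them.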
